A study of Arabidopsis thaliana with 6 samples.

Results

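RALF-like (rapid alkalinization factor-like) genes encode small secreted peptides. Signals of 7 of them were followed in Arabidopsis thaliana root tips, namely RALFL22, RALFL24, RALFL27, RALFL31, RALFL32, RALFL33 and RALFL34. They were taken from a platform table that gives the genes of the probe sets (groups of short probes for 1 transcript) on the Affymetrix ATH1 array. That table named 13355 genes, among them 11 of the 34 genes with a RALF symbol in the TAIR10.1 gene table, and each of the 11 had 1 probe set, so no choice between probe sets was needed. Of the 22746 probe sets tested, 8730 were not listed in that table and 503 were given several genes. A gene not named here may therefore still have a probe set. The 7 were chosen by measured signal. By mean log2 signal over all arrays the dimmest of the 7, RALFL27, was at 4.97, and the brightest of the 4 named genes left out, RALFL18, was at 4.45. That the 7 were brighter than the other 4 is therefore no result.

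The mutant plants carried mutant alleles of 4 genes for HD-ZIP III proteins (homeodomain-leucine zipper proteins of class III) and combined phv-6 (gene PHV), phb-13 (PHB), cna-2 (CNA) and athb8-11 (ATHB8). They were compared with Col er-2, the wild type of the study, whose er-2 allele lies in ERECTA. The labels name er-2 for the wild type alone, and whether the mutant carries it is not given in the sources used here. All seedlings were untreated and were cut 4 days after germination. About 200 primary root tips of 0.5 mm made up each of 3 biological replicates per genotype, so every value is that of a pool, and 250 ng of RNA went into each array.

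RALF peptides are read at the cell surface by receptor kinases of the CrRLK1L family, of which FERONIA (FER) is the best studied, together with GPI-anchored co-receptors. RALF1, the peptide for which FER was first shown to be a receptor, inhibits the plasma membrane proton pump, raises the pH of the wall space and slows root cell elongation. Other RALF peptides bind leucine-rich repeat extensins in the wall, and some precursors are cut by the subtilase S1P. The HD-ZIP III family consists of transcription factors and patterns the vascular tissue of the root. The question put to these arrays was whether RALF-like transcripts of the root tip differ when 4 of these factors are mutated.

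Array medians were 5.59 on each mutant array and between 5.56 and 5.57 in Col er-2 on the log2 scale, and across probe sets the correlation between arrays was 0.989 to 0.996. On a first principal component with 41.4% of the variance, Col er-2 replicate 1 lay farthest out at -28.1. Mutant replicate 1 was the next lowest at -11.4, with the other arrays between -0.96 and 18.5. Mutant replicate 2 at 18.5 and Col er-2 replicate 3 at 11.8 were farther from 0 than mutant replicate 1. On the second, with 24.1%, Col er-2 replicate 3 lay farthest out at 21.0, with the others between -15.0 and 8.02. PHV, the mutated gene that could be named here, had log2 signals of 4.64, 4.93 and 4.66 on the mutant arrays, against 5.49, 5.80 and 5.68 on the Col er-2 arrays. The groups did not overlap, and at a difference of -0.92 the adjusted p (limma, Benjamini-Hochberg) was 0.0639. Where the PHV probes lie relative to the lesion is not given, so this is a limited check of the genotype.

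No RALF-like gene passed the test between the genotypes. At a limma Benjamini-Hochberg adjusted p under 0.05 over all 22746 probe sets, 0 of the 7 were called, where 0.0264% of all probe sets were. The test with equal variances and no moderation, adjusted likewise, called 0 of the 7. It called only 1 of all 22746 probe sets, so its 0 of 7 adds little. At an unadjusted p under 0.05 there were 2 of 7, RALFL27 and RALFL33, both with lower signal in the mutant, and 3.26% of all probe sets were lower at that level. The same 2 genes were the ones whose groups did not overlap, with every mutant array below every Col er-2 array, which 5.57% of all probe sets showed in that direction. The reverse, every mutant array above, held for 0 of 7 and for 7.55% of all probe sets. The median difference of the 7 was -0.03 on the log2 scale, and that of all probe sets was 0.01. Differences are given below as mutant minus Col er-2 on the log2 scale, with 95% confidence intervals from the limma fit. In pooled root tips, fewer cells that express a gene and less RNA per cell cannot be told apart.

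**Figure D1:**
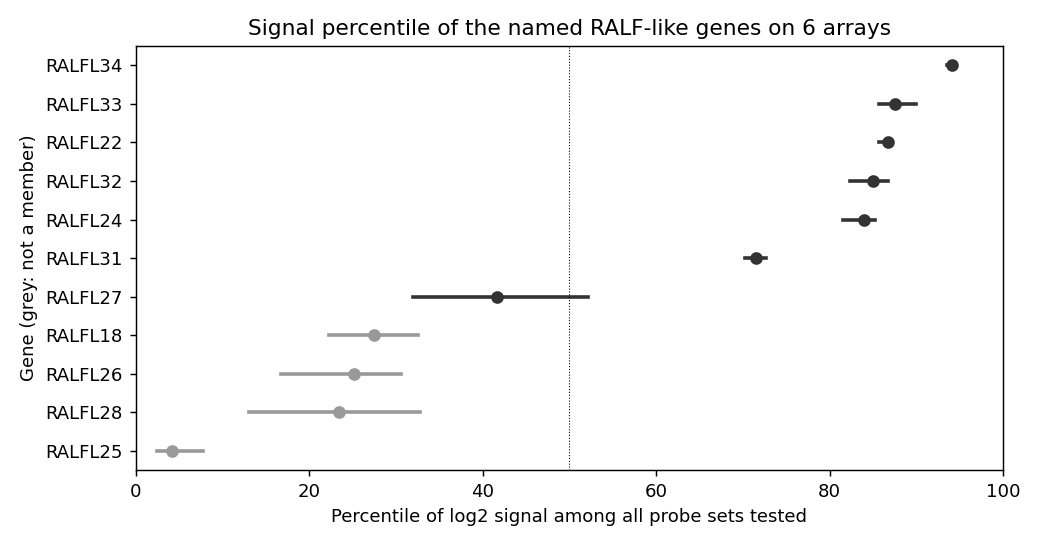
Percentile of log2 signal among the 22746 probe sets tested (x axis, 0 to 100) for the 11 named RALF-like genes (y axis), with the point at the mean over 6 arrays and the bar from the lowest to the highest array. The dotted line is the 50th percentile. RALFL34 sits at 94.1, 5 members lie between 71.5 and 87.6, RALFL27 at 41.6, and the 4 genes left out, in grey, lie below 28.

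Signals of the 7 fell into 4 levels, described here without a test because signal went into their choice. RALFL34 came highest on 6 of 6 arrays, from 10.22 to 10.50, and its mean lay at percentile 94.1 of all probe sets. RALFL33, RALFL22, RALFL32 and RALFL24 followed, at mean percentiles from 84.0 to 87.6. The ranges over arrays overlapped between neighbours in this order, while RALFL24, at most at 8.91, lay below the lowest values of RALFL33 and RALFL22, both 8.94. RALFL33 was above RALFL22 on 4 of 6 arrays, RALFL22 above RALFL32 on 5 and RALFL32 above RALFL24 on 5. RALFL31 came sixth on every array, from 7.41 to 7.61, and RALFL27 last, from 4.62 to 5.75. Probes of different genes bind with different strength, so this is an order of signals and not of transcript numbers.

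**Figure D2:**
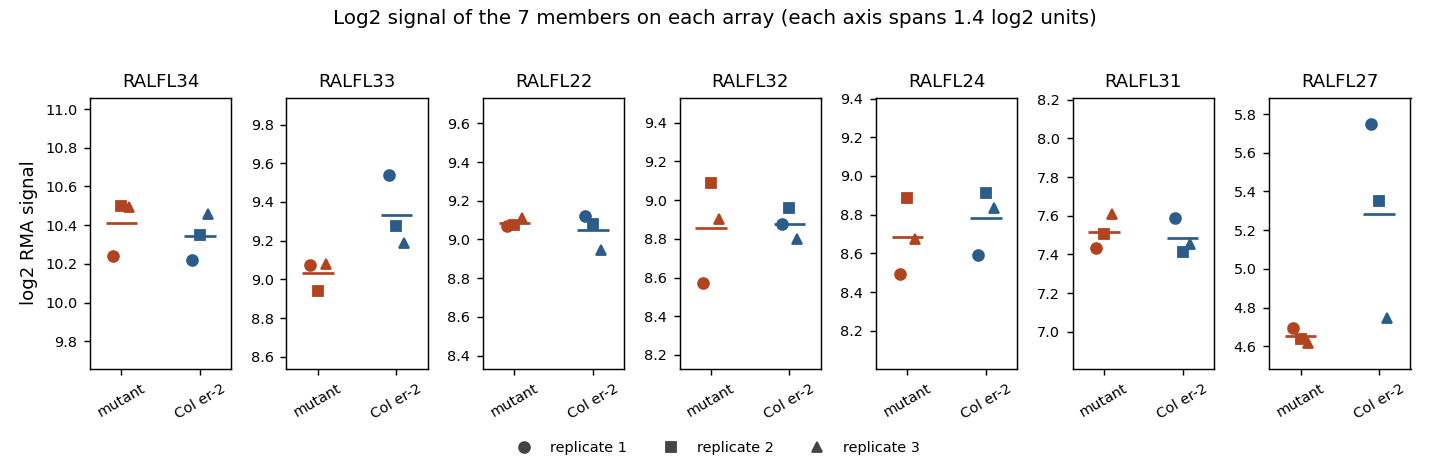
Log2 signal, taken to be RMA signal (y axis, a span of 1.4 in every panel), of the 7 genes on each array. The mutant is on the left and Col er-2 on the right of each panel. Circles, squares and triangles are replicates 1, 2 and 3, and lines are group means. The groups are apart for RALFL33 and RALFL27, by 0.11 and 0.05, and overlap for the other 5 genes.

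RALFL27 (AT3G29780, probe set 256563_at) showed the widest difference. Its log2 signal was 4.69, 4.64 and 4.62 on the mutant arrays, against 5.75, 5.35 and 4.75 on the Col er-2 arrays. The mutant arrays were close together at a low level, while the Col er-2 arrays were spread, with replicate 3 only 0.05 above the highest mutant array. The means were 4.65 ± 0.04 in the mutant and 5.28 ± 0.51 in Col er-2 (SD, n = 3 each). The difference of -0.63 (-1.13 to -0.13), or 0.645-fold in signal, had a limma adjusted p of 0.555. By size of difference, 138 of all probe sets were further from 0. Only 1 of its 6 values, Col er-2 replicate 1, was above its array's median, and no detection call was given, so a fold of signal here is not a fold of transcript. Its residual SD of 0.36 was at percentile 97.4 of all probe sets. Without Col er-2 replicate 1 the difference was -0.40 (adjusted p = 0.827 with limma), and without replicate 1 of both genotypes it was -0.42 (adjusted p = 0.853). Without Col er-2 replicate 3 it was -0.90 (adjusted p = 0.188).

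RALFL33 (AT4G15800, 245334_at), whose peptide is reported to dampen immune signalling, was bright in all samples. It had 9.08, 8.94 and 9.08 in the mutant, against 9.54, 9.27 and 9.19 in Col er-2, on the log2 scale. All mutant arrays lay below all Col er-2 arrays, by a gap of 0.11. Group means were 9.03 ± 0.08 in the mutant and 9.33 ± 0.18 in Col er-2 (SD, n = 3 each). The difference was -0.30 (-0.55 to -0.05), which is 0.811-fold in signal, with a limma adjusted p of 0.567. It was -0.20 (adjusted p = 0.857) without Col er-2 replicate 1 and -0.22 (adjusted p = 0.878) without replicate 1 of both genotypes. Without Col er-2 replicate 3 it was -0.37 (adjusted p = 0.481). Its rank by p was 905 of all probe sets, and that of RALFL27 was 801.

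The other 5 genes had differences between -0.10 and 0.07, and the groups overlapped for each. For each of them at least 1 left-out array moved the difference by over 1.5 times. With any array left out 0 of 5 were called. Those fits called only 1 to 8 of all 22746 probe sets, so that count is no result about these 5 genes. Their confidence intervals together ran from -0.39 to 0.31, so that the fit left room for signals between 0.765-fold and 1.24-fold of Col er-2.

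RALFL34 (AT5G67070, 247037_at), a peptide gene that acts in lateral root initiation and whose peptide is a ligand of the receptor kinase THESEUS1 (THE1), had 10.24, 10.50 and 10.49 in the mutant, against 10.22, 10.35 and 10.46 in Col er-2. Replicate 1 was the lowest array of either genotype. The difference was 0.07 (-0.17 to 0.31), with a limma adjusted p of 0.927, and it ran from 0.01 without Col er-2 replicate 1 to 0.15 without mutant replicate 1. RALFL22 (AT3G05490, 259106_at), whose peptide binds leucine-rich repeat extensins, was the steadiest of the 7, with a residual SD of 0.07. Its signals were 9.07, 9.07 and 9.11 in the mutant and 9.12, 9.08 and 8.94 in Col er-2. Col er-2 replicate 3 lay lowest, and the difference of 0.04 (-0.15 to 0.22) had a limma adjusted p of 0.960.

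RALFL32 (AT4G14010, 245386_at) had 8.57, 9.09 and 8.90 in the mutant, against 8.88, 8.96 and 8.80 in Col er-2. The mutant arrays held both its lowest and its highest value. The difference was -0.03 (-0.33 to 0.28), with a limma adjusted p of 0.987, and it ran from -0.14 without mutant replicate 2 to 0.12 without mutant replicate 1. RALFL24 (AT3G23805, 257204_at) had 8.49, 8.88 and 8.67 in the mutant, against 8.59, 8.91 and 8.84 in Col er-2. Replicate 1 was lowest and replicate 2 highest in both genotypes. Its difference was -0.10 (-0.39 to 0.19), with a limma adjusted p of 0.914, and it ran from -0.20 without mutant replicate 2 to -0.0012 without mutant replicate 1. RALFL31 (AT4G13950, 245310_at) had 7.43, 7.50 and 7.61 in the mutant, against 7.59, 7.41 and 7.45 in Col er-2. These values interleaved, and the difference of 0.03 (-0.17 to 0.23) had a limma adjusted p of 0.967.

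Replicate 1, which lay lowest on the first component in both genotypes, was set against the mean of replicates 2 and 3 of its own genotype for each gene. RALFL24 was lower there in both, by a log2 difference of -0.28 in the mutant and -0.28 in Col er-2. RALFL34 was lower in both as well, at -0.25 in the mutant and -0.18 in Col er-2. RALFL27 was higher in both, though at 0.06 in the mutant and 0.70 in Col er-2, and RALFL33 likewise at 0.07 in the mutant and 0.31 in Col er-2. RALFL32 was at -0.42 in the mutant and at -0.00032 in Col er-2. RALFL22 and RALFL31 went in opposite directions, at -0.02 and -0.12 in the mutant and 0.11 and 0.16 in Col er-2. The 2 genes with separate groups thus had their highest Col er-2 value on the array that lay farthest out on the first component. The part of that array's distance in their differences was not tested beyond the values without it given above.

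**Figure D3:**
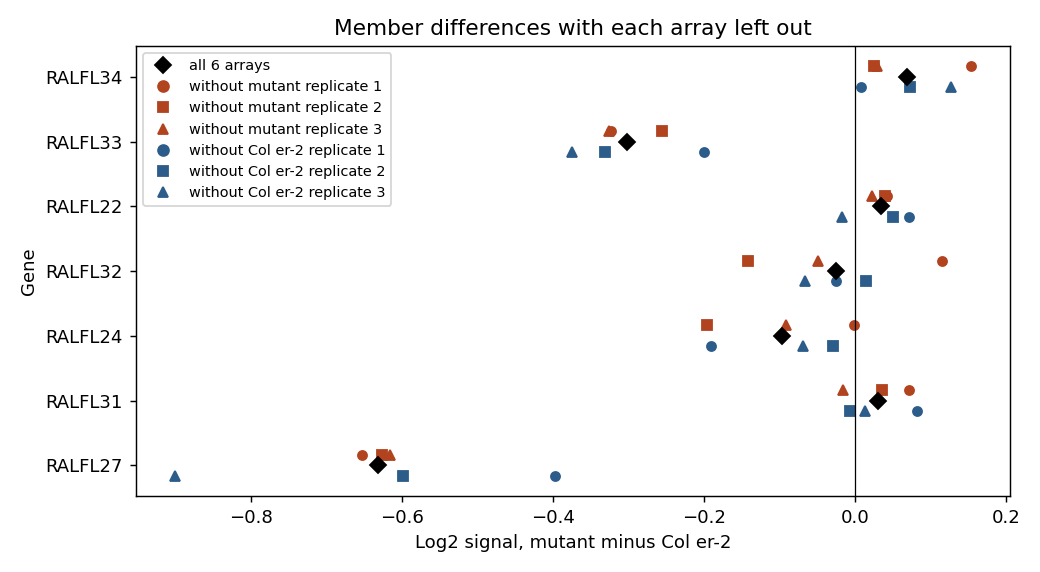
Difference in log2 signal, mutant minus Col er-2 (x axis), for each of the 7 genes (y axis) with all 6 arrays (black diamonds) and with 1 array left out (red, a mutant array; blue, a Col er-2 array; circles, squares and triangles for replicates 1, 2 and 3). RALFL27 stays between -0.90 and -0.40 and RALFL33 between -0.37 and -0.20, and RALFL22, RALFL32 and RALFL31 lie on both sides of 0.

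The 4 other named RALF-like genes, RALFL18, RALFL26, RALFL28 and RALFL25, were dim on every array. Their mean percentiles were 27.5, 25.2, 23.5 and 4.25, and none of their values exceeded an array median. By limma after Benjamini-Hochberg adjustment 0 of 4 were called, against 0.0264% of all probe sets. At an unadjusted p under 0.05 there were 0, against 7.47% of all probe sets, so little can be read from 4 genes. Differences ran from -0.15 for RALFL18 to -0.01 for RALFL26, and the groups overlapped for each. The sign was not stable for RALFL26 and RALFL28, which were at 0.05 and 0.07 without Col er-2 replicate 1.

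The 7 genes lay far from the mutated loci or on other chromosomes. RALFL22, RALFL24 and RALFL27 lie on chromosome 3 and RALFL34 on chromosome 5, which hold none of the 4 mutated genes. RALFL31, RALFL32 and RALFL33 lie on chromosome 4 with ATHB8, and in the order of protein-coding genes of TAIR10.1 the nearest of them, RALFL33, was 1905 genes away from it. RALFL31 and RALFL32 were 11 genes apart. Of the RALF-like genes left out, RALFL18 was 173 genes from PHB. RALFL27, which differed by -0.63, was 660 genes from RALFL24, which differed by -0.10.

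Receptors were next. Of 17 CrRLK1L receptor genes listed, 12 were named on the array. By limma after Benjamini-Hochberg adjustment 0 of the 12 were called, against 0.0264% of all probe sets. At an unadjusted p under 0.05 there was 1, against 7.47% of all probe sets in either direction. The median difference of the 12 was -0.01, and 10 of them lay under the 35th percentile of signal. THE1, which monitors wall integrity and is the receptor of the RALFL34 peptide, was the gene under 0.05. Its log2 signals were 7.28, 7.09 and 7.38 in the mutant, against 7.64, 7.52 and 7.36 in Col er-2. The groups overlapped by replicate 3 of each, and the difference of -0.26 (-0.51 to -0.01) had a limma adjusted p of 0.652. FER, named here after its values were seen because it is the best known RALF receptor, had 8.94, 8.43 and 8.77 in the mutant, against 9.10, 8.79 and 8.68 in Col er-2. Its groups overlapped, and the difference was -0.14 (-0.50 to 0.22), with a limma adjusted p of 0.894. Replicate 1 was its highest array in both genotypes, by 0.34 in the mutant and 0.36 in Col er-2 over the mean of replicates 2 and 3. The listed loci AT2G23200 and AT5G59700 were dim and differed by 0.15 and 0.11 (limma adjusted p = 0.794 and 0.851). Those 2 and THE1 had the smallest p of the list.

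Of the 4 GPI-anchored co-receptor genes listed, 0 were named, so they were not analysed here. Of 11 leucine-rich repeat extensin loci listed, 8 were named, given by locus because the gene table does not hold their symbols. Of the 8, 6 lay under the 35th percentile. None was called by limma after Benjamini-Hochberg adjustment, against 0.0264% of all probe sets. An unadjusted p under 0.05 was found for 0 of the 8, against 7.47% of all probe sets, and their median difference was 0.07. By smallest p these were AT4G33970, which differed by 0.19, AT4G18670 by -0.21 and AT1G49490 by 0.11 (limma adjusted p = 0.686, 0.768 and 0.859). AT4G33970 was dim, at mean percentile 11.9, and had every mutant array above every Col er-2 array. Over all probe sets 7.55% had that.

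Of 17 genes of precursor processing and downstream signalling, 3 were named. By limma after Benjamini-Hochberg adjustment 0 of the 3 were called, where 0.0264% of all probe sets were. At an unadjusted p under 0.05 there were 0 of the 3, against 7.47% of all probe sets. S1P, the subtilase that cuts RALF23 and related precursors, had 7.18, 7.20 and 6.998 in the mutant, against 7.22, 7.31 and 7.24 in Col er-2. The groups were just apart, with the mutant below, by a gap of 0.02, and 5.57% of all probe sets had every mutant array below. The S1P difference of -0.13 (-0.33 to 0.07) had a limma adjusted p of 0.806. CML38, a calmodulin-like protein reported to bind RALF1, varied far more between replicates than between genotypes. It had 8.93, 7.48 and 7.77 in the mutant, against 9.73, 8.32 and 6.49 in Col er-2, with replicate 1 highest in both. Its difference of -0.12 had an interval of -1.80 to 1.57, so it was not measured closely (limma adjusted p = 0.990). The locus AT2G41970 was dim and differed by 0.04 (adjusted p = 0.964). Over the 3 pathway lists with named genes, 0 of 23 were called, against 0.0264% of all probe sets, and 17 of the 23 lay under the 35th percentile. In the mutant 12 had a higher and 11 a lower mean, and the median difference was 0.03. Of all 22746 probe sets, 11961 were higher and 10785 lower, so this split is much like that of the whole array.

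**Figure D4:**
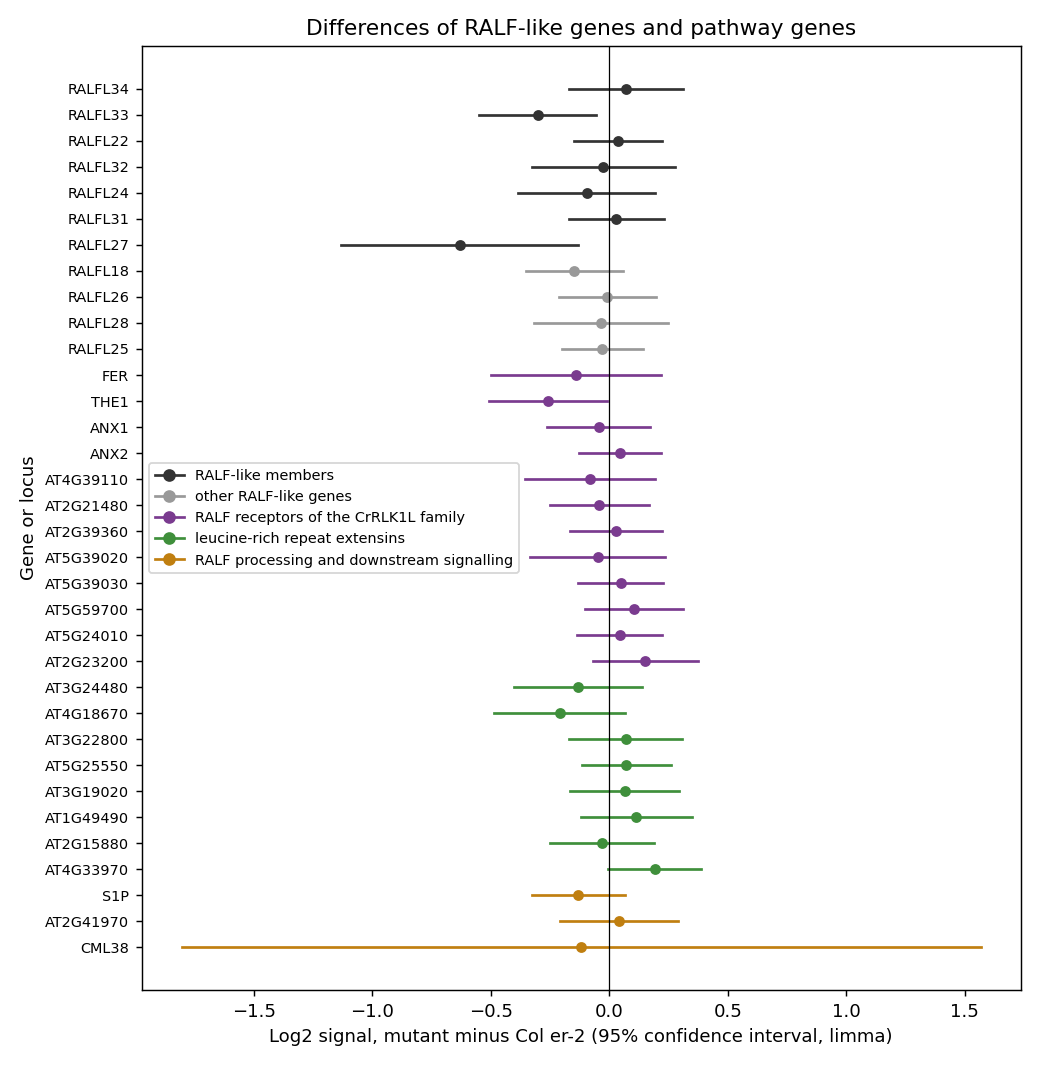
Difference in log2 signal, mutant minus Col er-2 (x axis), with 95% confidence intervals from limma, for the 7 RALF-like genes, the 4 other named RALF-like genes and the 23 pathway genes (y axis, coloured by list). Intervals of RALFL27, RALFL33 and THE1 lie below 0. At an adjusted p under 0.05, 0 of the genes shown passed, where 0.0264% of all probe sets did. CML38 has the widest interval.

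Markers of root tissues were read beside these values, with 10 of 31 listed genes named, 2 in each list. Signals summed over a list on the linear scale ran from 113 to 127 in the mutant and from 82 to 109 in Col er-2 for the meristem list (BBM and AGL42). BBM was the brighter, and AGL42, dim at mean percentile 24.3, differed by only 0.06 on the log2 scale. Sums ran from 466 to 629 in the mutant and from 295 to 469 in Col er-2 for the root cap list (AT1G65570 and ACR4). The brighter AT1G65570 differed by 0.43 on the log2 scale and ACR4 by 0.08. The cortex and endodermis list (AT1G62500 and JKD) ran from 296 to 387 in the mutant and from 239 to 300 in Col er-2. Its members went opposite ways, by a log2 difference of 0.57 for the brighter AT1G62500 and -0.14 for JKD. Sums were 43 to 44 in the mutant and 42 to 52 in Col er-2 for epidermis and root hair (EXPA7 and EXPA18), both dim. For green tissue (RCA and LHCB4.1) they were 73 to 85 in the mutant and 77 to 118 in Col er-2. Limma called none of the 10 after Benjamini-Hochberg adjustment (adjusted p = 0.369 to 0.927), where 0.0264% of all probe sets were called. An unadjusted p under 0.05 was found for 2, where 7.47% of all probe sets had one. These were AT1G62500, a listed cortex marker, and BBM, a stem cell niche factor that differed by 0.42. On the mutant arrays both were above all Col er-2 arrays, while EXPA7 and RCA, like RALFL27 and RALFL33, were below them, by mean differences of -0.17 and -0.33. That of RCA was -0.12 without Col er-2 replicate 3. Over all probe sets 7.55% had every mutant array above and 5.57% every mutant array below. The part of tissue makeup in the RALF-like values was not tested.

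For the 3 members whose signal spanned at least 0.5 over the arrays, the named genes with the most similar pattern were sought by Pearson's r over the 6 arrays among 2773 genes with as wide a span. With so many genes and 6 arrays of 2 genotypes, high values of r are easily reached, and they are given as a description. RALFL33 was most like AT1G09920, AT3G05980 and AT5G64250, at r of 0.988, 0.986 and 0.985. Those 3 loci had mean differences of -0.34, -0.45 and -0.25, and each was highest on Col er-2 replicate 1. RALFL27 was most like AT4G17280, AT3G29075 and AT3G28550, at 0.986, 0.985 and 0.975. They differed by -0.53, -0.28 and -0.81, and they too were highest on Col er-2 replicate 1. RALFL32 was most like AT3G24790, AT5G19850 and AT4G14820, at 0.977, 0.972 and 0.959, which were lowest on mutant replicate 1 and highest on mutant replicate 2. None of these 9 loci passed, where 0.0264% of all probe sets did. Their limma adjusted p lay between 0.446 and 0.993.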

How the data were processed

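The deposited values were log2 signals, 1 for each probe set on each of 6 arrays. Per the submitters' processing notes the tools were limma, RMA and Affymetrix Expression Console, with no versions or roles stated. That the authors' log2 values are RMA signals (background corrected, quantile normalized, summarised over probes) is inferred from those names and the range of the values, and is not stated. If they are, quantile normalization hides a shift shared by most genes, and differences of dim probe sets are compressed by RMA.

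After 64 control probe sets were left out, 22746 were tested with limma 3.58.1 in R 4.3.3 (lmFit, eBayes), as mutant minus Col er-2 and adjusted by Benjamini-Hochberg over all of them. The script was tested on simulated data. The median standard error was 0.10, and 3 arrays per genotype limit the precision. Genes were named from the platform's table and updated through TAIR10.1. All 7 members matched. No coordinates are given, since the files name no build.

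Members and lists were chosen with earlier results of these data known. By rule, all RALF-like genes were named, and of each list all named genes up to 6, otherwise the 3 with the smallest p. Replicate 1 arrays were left out together only after the data were seen.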

Additional observations from a re-analysis of the deposited data

How the results depend on the processing

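No RALF-like gene passed under any of the 14 alternatives: the count stayed at 0 of 7, and at 0 for the other RALF-like genes and the pathway lists wherever they were tested. The dim-probe filter left none of the 4 other RALF-like genes, and no member had another named probe set to try. At an unadjusted p under 0.05, 0 to 2 of the 7 were found, 0 with the equal-variance test and without replicate 1 of both genotypes. In those settings 1574 and 1400 of all 22746 probe sets were under 0.05, so 0 of 7 is no result about these genes. Adjusted p ran from 0.188 to 0.999 for RALFL27 and from 0.375 to 0.999 for RALFL33. Over all probe sets, against 6 calls, the replicate block gave 109, trend with robust 27, array weights 22, repeated quantile normalization 11, the equal-variance test 1, and leaving out 1 array 1 to 8, with 1 without each mutant array and 3 without Col er-2 replicate 2. Whether the replicate numbers mark pairs is not settled here. Deviations from the group means correlated at 0.504 (replicate 1), 0.065 (replicate 2) and 0.176 (replicate 3). Mutant replicates 1 and 3 went most with the Col er-2 array of their number, and mutant replicate 2 with Col er-2 replicate 3 (0.317). Deviations within a group of 3 arrays are not independent, so these values cannot decide it. Of 421 recomputed differences of 31 named genes, 22 turned sign, none past the threshold in either setting. With 1 array left out these ran from -0.016 to 0.072 (RALFL22), -0.14 to 0.12 (RALFL32), -0.016 to 0.083 (RALFL31), -0.066 to 0.049 (RALFL26), -0.16 to 0.065 (RALFL28), -0.255 to 0.0041 (FER), -0.042 to 0.15 (AT2G41970), -0.97 to 0.66 (CML38) and -0.27 to 0.011 (EXPA18). Without replicate 1 of both genotypes RALFL32 was at 0.12, RALFL26 at 0.085, RALFL28 at 0.066 and CML38 at 0.22. With array weights RALFL26 was at 0.0038 and RALFL28 at 0.022, and with repeated quantile normalization RALFL26 was at 0.0030. The cause was not tested. Low signal limits RALFL27 and the 4 other RALF-like genes, which lie below the array medians on nearly all arrays.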
